A study of Mus musculus with 8 samples.

Results

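Liver gene expression 14 days after extended hepatectomy was compared with that 2 days after it. The comparison used 6 of the 8 libraries of the series, the 2 labelled day 14 and the 4 labelled day 2. It covered the 11990 genes, of 47719 listed, that reached 1 FPKM (fragments per kilobase of transcript, scaled to the library's mapped fragments) in at least 2 of those 6 libraries. All libraries were made from liver of wild type C57BL/6 mice, and the 2 remaining libraries came from normal control mice aged 10 weeks, whose values are given as background. According to the design text, mice at day 2 were given either EMC, as a control, or eLO, while all mice at day 14 were given eLO. The series title speaks of encapsulated human hepatocyte organoids as a treatment of liver failure, and neither abbreviation is spelled out. The labels do not say which treatment each day 2 library had. Time and treatment therefore cannot be told apart here. The age and sex of the operated mice are not given. Nothing states that replicate libraries are from different animals, so a p-value reflects only how these libraries vary, which may be technical.

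After partial hepatectomy the hepatocytes that remain, which are normally quiescent, re-enter the cell cycle while they go on serving the body. Cytokines such as IL-6 and growth factors such as HGF prime and drive this, and within days the liver makes acute phase proteins, takes up fat and remodels its cytoskeleton. Mature functions, among them bile acid synthesis, drug metabolism, the urea cycle and the sexually dimorphic programme set by growth hormone, are costly and are known to be reduced in the early phase and restored as the liver regains its mass.

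The libraries did not form a tight day 2 group. Across the genes tested, log2(FPKM + 1) correlated at r = 0.963 between the 2 day 14 libraries and at 0.885 to 0.967 among the day 2 libraries, where replicates 1 and 2 (r = 0.958) and replicates 3 and 4 (r = 0.967) were closest to each other. Between day 14 and day 2 libraries r was 0.840 to 0.906. The title of day 2 replicate 1 says day 1 while its age label says day 2, and the title of day 2 replicate 3 carries the letters TVR, which are not explained. Mitochondrially encoded genes held 43.3% of the summed FPKM in day 14 replicate 1 and 17.6% in day 14 replicate 2, against 7.02% to 20.5% in the day 2 libraries and 7.71% and 8.09% in the controls. Summed FPKM was 686332 to 1298005 per library, and 10796 to 11197 genes reached 1 FPKM. Read numbers are unknown, so no counting error can be given. The tissue label was checked against 10 hepatocyte markers: their summed FPKM was 64857, 97759, 85178 and 64880.0 at day 2 and 61574 and 75104 at day 14, and none of the 10 was called. Albumin (Alb), the main plasma protein, measured 14930.0, 20345, 39857 and 21816 FPKM in the day 2 libraries and 23786 and 26113 FPKM in the day 14 libraries, with overlapping groups (difference 0.14 ± 0.45 log2 units, 95% interval -0.92 to 1.19). Here and below, values are listed in replicate order, day 2 replicates 1 to 4 first. A difference is day 14 minus day 2 on the log2(FPKM + 1) scale with its standard error, which understates the change of genes near or below 1 FPKM.

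Of the 11990 genes tested, 996 (8.31%) passed an adjusted p of 0.05 in limma with Benjamini-Hochberg adjustment and are termed called. Of these, 593 (4.95%) were higher at day 14 and 403 (3.36%) were lower. Groups did not overlap in any of the 996, and 974 differed by 1 log2 unit or more. Without any test, groups did not overlap in 5035 genes (42%), and 3542 had an unadjusted p under 0.05. The median difference of all genes tested was -0.04. These shares and this median are the background for each list count given here, and a list with a share of calls near them is described with no claim about the list. With 2 libraries at day 14, the number of calls rested on single libraries: 1 gene was called without day 14 replicate 1 and 18 without day 14 replicate 2, against 169, 1046, 756 and 380 without day 2 replicates 1, 2, 3 and 4. All 996 genes kept their sign in each of these 6 fits. This outcome was fixed, because the mean difference of groups that do not overlap cannot reverse when 1 library is removed. Among the 54 called genes under the rule for named genes, log2 differences changed by a ratio of at most 1.46. That ratio is on the log2 scale and is more as a fold. Only Snora57 was called without day 14 replicate 1, and Cdkn1a, Gzmb, Nrep and Snora57 without day 14 replicate 2. This bears on every call given below. When libraries were scaled to equal totals without the mitochondrially encoded genes, 296 genes were called higher and 427 lower, so the balance of directions rests on the scaling. That scaling moved the median of all genes to -0.15, and under it Afp, C8a, Cyp2c54, Hspb1, Klkb1, Onecut2, Prodh2 and Selenbp2 lost their call. Genes given with values outside that rule were chosen after their values were seen.

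**Figure D1:**
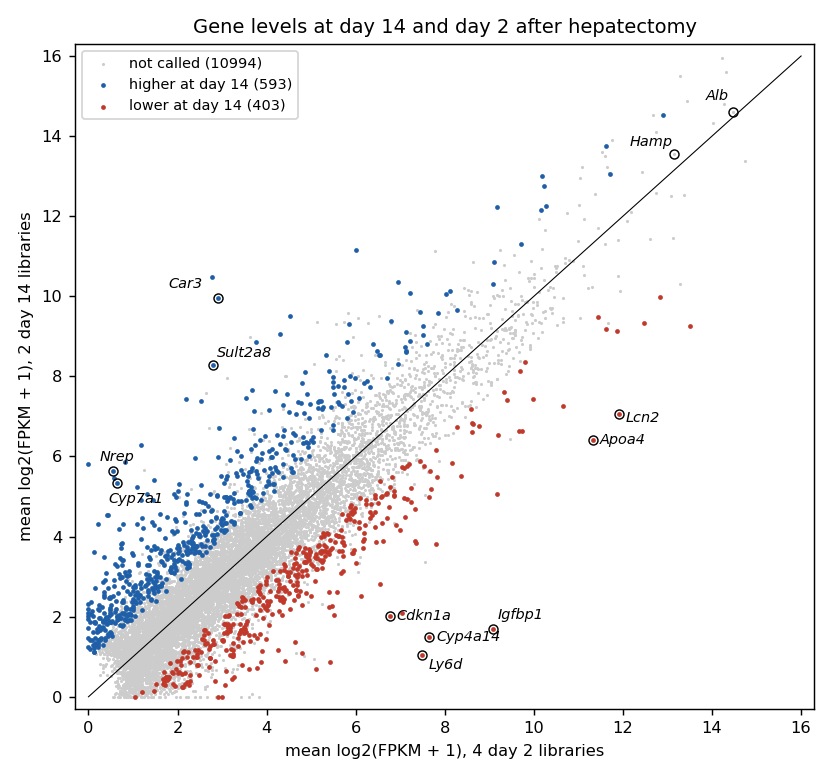
Mean log2(FPKM + 1) of each of 11990 genes in the 2 day 14 libraries (vertical axis) against the 4 day 2 libraries (horizontal axis); blue and red points are the 593 genes called higher and the 403 called lower at day 14, grey points are the rest, and the line marks equal levels. Alb and Hamp lie near the line, and Car3 and Igfbp1 lie far from it on opposite sides.

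Car3, at chr3:14863512-14872523 on GRCm38, had the largest rise and Igfbp1 the largest fall among called genes, unnamed gene models and pseudogenes left out. Car3, the cytosolic carbonic anhydrase III that is abundant in male rodent liver, measured 3.12, 2.06, 31.6 and 6.61 FPKM in the day 2 libraries and 857 and 1169.9 FPKM in the day 14 libraries. Every day 14 value was above every day 2 value, and the mean at day 14 was 93.4 times that at day 2 (7.07 ± 0.87 log2 units, adjusted p = 0.0124); the controls were higher still, at 2370.5 and 2604 FPKM. Sult2a8, a liver sulfotransferase, rose from 4.71, 5.38, 12.6 and 3.64 FPKM to 253 and 376 FPKM (5.48 ± 0.45 log2 units, adjusted p = 0.00549). Ces3b, a carboxylesterase of the endoplasmic reticulum, rose from 19.8, 21.9, 14.4 and 3.56 FPKM to 534 and 397 FPKM (5.09 ± 0.64 log2 units, adjusted p = 0.0130). Nrep, a small neuronal regeneration related protein, was nearly silent at day 2 (0.366, 0.103, 0.672 and 0.858 FPKM) and reached 43.5 and 54.9 FPKM, above the controls at 8.88 and 7.3 FPKM (5.08 ± 0.28 log2 units, adjusted p = 0.00115). In these 4 genes the groups were separate, as in every called gene. Of the 4, Car3 and Sult2a8 stayed below both controls at day 14 (Sult2a8 controls 595 and 642 FPKM). Nrep and Ces3b were above them (Ces3b controls 349 and 282 FPKM). Snora57, a small nucleolar RNA, was listed at 0 in all 4 day 2 libraries and both controls and at 66.8 and 46 FPKM at day 14, so no fold is given. A transcript this short is measured poorly by FPKM, and it lies opposite Lbhd1 on the other strand.

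**Figure D2:**
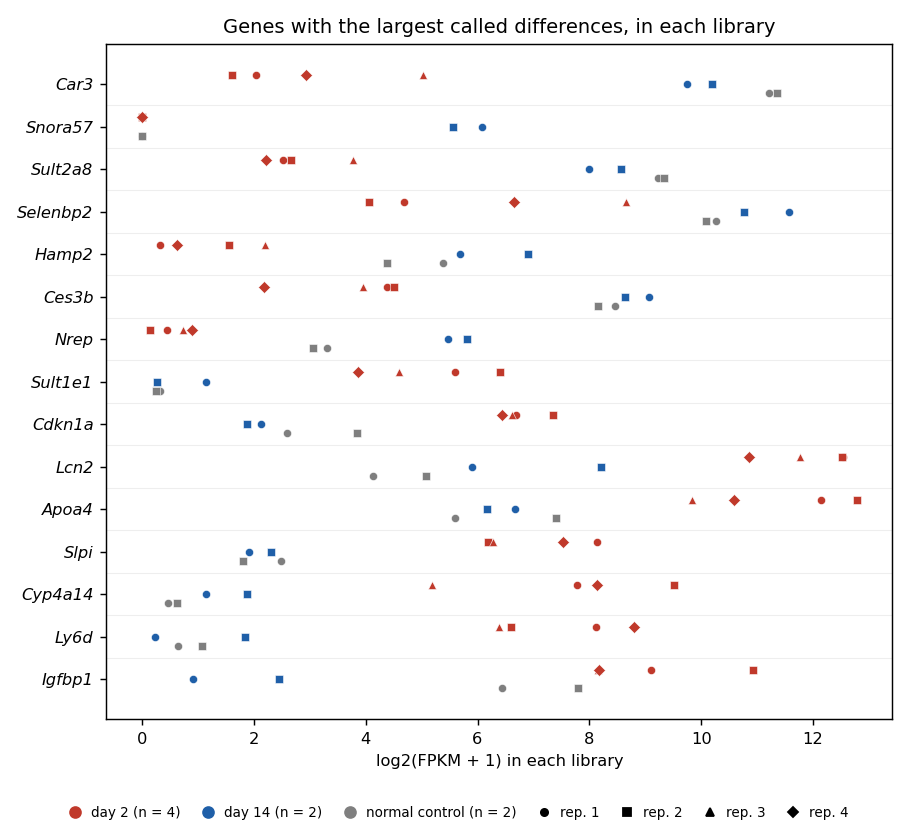
Log2(FPKM + 1) of genes with the largest called differences in each library, with day 2 in red, day 14 in blue and normal controls in grey, and a marker shape for each replicate number. The genes drawn were chosen among called genes whose groups do not overlap, so blue and red points are separate in each. In Igfbp1, Cdkn1a, Car3 and Sult2a8 both blue points lie below both controls.

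Igfbp1 (at chr11:7197782-7202546), the fasting-induced and injury-induced binding protein of insulin-like growth factors, measured 552, 1940.3, 283 and 287 FPKM in the day 2 libraries and 0.888 and 4.49 FPKM in the day 14 libraries, so that the mean at day 2 was 284 times that at day 14 (-7.40 ± 0.83 log2 units, adjusted p = 0.0103). The controls, at 85.4 and 222 FPKM, lay between the groups. Ly6d, a small membrane-anchored protein of lymphoid and epithelial progenitors, fell from 278, 96.3, 83 and 443 FPKM to 0.169 and 2.59 FPKM (-6.44 ± 0.77 log2 units, adjusted p = 0.0117). Slpi, a secreted inhibitor of leukocyte proteases, fell from 280.1, 72.1, 76.1 and 184 FPKM to 2.76 and 3.92 FPKM (-4.93 ± 0.58 log2 units, adjusted p = 0.0116). Both were near the controls at day 14; the controls measured 0.559 and 1.11 FPKM for Ly6d and 4.61 and 2.51 FPKM for Slpi. Sult1e1, the oestrogen sulfotransferase, fell from 47.5, 83.8, 23.1 and 13.6 FPKM to 1.2 and 0.202 FPKM (-4.42 ± 0.68 log2 units, adjusted p = 0.0186).

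The cell cycle inhibitor Cdkn1a (p21, at chr17:29090976-29100727 on GRCm38) fell with the smallest standard error among the 8 largest falls. It measured 102, 163, 96.8 and 85.9 FPKM in the day 2 libraries and 3.39 and 2.67 FPKM in the day 14 libraries. Both day 14 values were below the controls, at 5.07 and 13.3 FPKM. All 4 day 2 libraries were high, including the 2 in which mitotic genes were low, and the mean at day 2 was 36.9 times that at day 14 (-4.77 ± 0.32 log2 units, adjusted p = 0.00254). Among 18 tested targets of p53, which induces Cdkn1a after DNA damage, 3 fell and none rose (median -0.79). Btg2, an antiproliferative early gene, went from 23.4, 95.6, 36.6 and 35.8 to 3.35 and 7.67 FPKM (-2.79, adjusted p = 0.0324). Gdf15, a stress hormone, went from 37.1, 21, 21.3 and 39.2 to 11.4 and 5.58 FPKM (-1.70, adjusted p = 0.0446). Mdm2, the p53 feedback ligase, measured 15.1, 19.3, 15.8 and 21.7 FPKM at day 2 and 23 and 16.6 FPKM at day 14 with overlapping groups (0.13, adjusted p = 0.771).

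Genes of mitosis differed widely among the day 2 libraries. None of 38 tested genes of G2 phase and mitosis was called, and 1 had an unadjusted p under 0.05. Of the 38, 37 had a negative difference, and the median was -1.70, against -0.04 over all genes tested. All 38 listed genes passed the filter, but 25 reached 1 FPKM in 1 group only, as Ccnb1 and Mki67 did at day 2. Each of these 25 could be called in 1 direction only. Relative to the day 14 mean, the list's median in each library was -0.25, -0.30, 3.59 and 3.79 at day 2 and 0.07 and 0.15 in the controls. Day 2 replicates 3 and 4 were thus high, and replicates 1 and 2 were at or below the day 14 level. Leaving out single libraries moved the list's median difference from -2.39 (without day 2 replicate 2) to -0.93 (without day 2 replicate 4). Ccnb1, the mitotic cyclin B1, was at 0, 0, 36.6 and 42.8 FPKM at day 2 and 0.0477 and 0.386 FPKM at day 14. Mki67, the proliferation antigen Ki-67, was at 0.0155, 0.0483, 10.5 and 14.9 FPKM at day 2 and 0.244 and 0.346 FPKM at day 14. For both, replicates 3 and 4 were above and replicates 1 and 2 were below every day 14 value (-2.40, adjusted p = 0.383 for Ccnb1 and -1.53, adjusted p = 0.425 for Mki67). Ube2c, the ubiquitin carrier of the anaphase-promoting complex, had the same pattern at 1.26, 0.516, 168 and 247 FPKM at day 2 and 2.66 and 4.04 FPKM at day 14. Cks2, a small partner of cyclin-dependent kinases, was at 26, 36.1, 77.7 and 108 FPKM at day 2 and 42.8 and 43.8 FPKM at day 14 (-0.29, adjusted p = 0.751). In contrast, Pttg1 (securin) was the 1 member with a positive difference, at 34.8, 23.9, 32.7 and 35.5 FPKM at day 2 and 59.3 and 79.9 FPKM at day 14 with no overlap (1.11, adjusted p = 0.0541).

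Genes of DNA replication were called in 2 cases only. Of 45 tested, 1 rose and 1 fell, and the median was -0.87 (-1.28, without day 2 replicate 2, to -0.57, without day 2 replicate 4). Of the 45, 11 reached 1 FPKM in 1 group only, so each of these could be called in 1 direction only. Over all 46 listed genes the median was -0.86. Rpa2, a subunit of the single-stranded DNA binding protein RPA, fell from 9.65, 6.74, 15.6 and 20.8 FPKM to 1.4 and 2.52 FPKM (-2.18 ± 0.44 log2 units, adjusted p = 0.0326). Mcm10, a replication initiation factor, rose from 3.01, 12.9, 9.9 and 12.8 FPKM to 80.5 and 93.6 FPKM, with the controls at 73.2 and 41.3 FPKM (3.20 ± 0.52 log2 units, adjusted p = 0.0208). Mcm10 was thus higher in both day 14 libraries and both controls than in every day 2 library, against the negative median of its list. Ccnd1, the cyclin that carries hepatocytes through G1, was at 13.8, 3.36, 48.2 and 51.9 FPKM at day 2 and 6.86 and 9.24 FPKM at day 14, with day 14 inside the day 2 range (-1.17, adjusted p = 0.446). Of 16 tested G1 cyclins, kinases and inhibitors, only Cdkn1a was called.

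**Figure D3:**
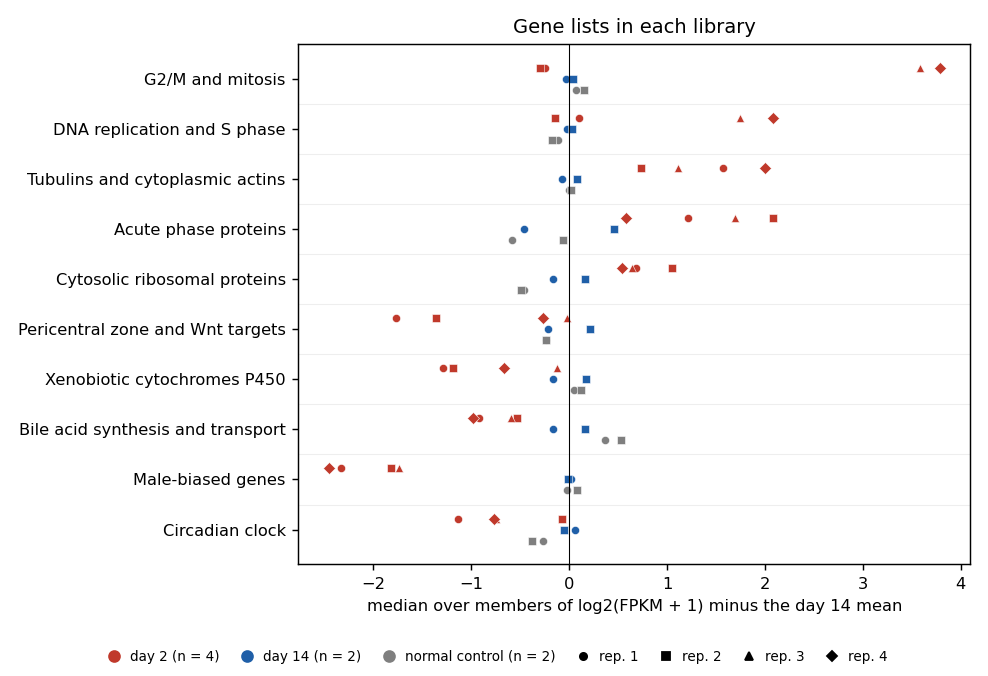
Median over the members of 10 gene lists of log2(FPKM + 1) minus the mean of the 2 day 14 libraries, for each day 2 (red), day 14 (blue) and control (grey) library, with a marker shape for each replicate number. Day 2 replicates 3 and 4 stand apart in the 2 cell cycle lists, at 3.59 and 3.79 for G2/M, while for male-biased genes all 4 day 2 libraries lie between -2.45 and -1.74.

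Tubulins and actins, which build the microtubules and the cell cortex, were called in 1 direction. Of 19 tested tubulins, cytoplasmic actins and their partners, 6 fell and none rose, beside 3.36% of all genes called lower; all 19 differences were negative (median -1.56). Tubb6, a beta-tubulin isotype, fell from 39.3, 37.2, 120.3 and 125 FPKM to 4.72 and 4.74 FPKM, with the controls at 4.72 and 5.32 FPKM (-3.60 ± 0.57 log2 units, adjusted p = 0.0204). Tubb2a fell from 389, 273, 54.3 and 113 to 14.1 and 13.3 FPKM (-3.45, adjusted p = 0.0363). Tubb5 fell from 164, 43.9, 159 and 227 to 15.7 and 18 FPKM (-2.85, adjusted p = 0.0381). The remaining 3 were Tuba1a (-2.20), Tubb4b (-2.32) and the cytoplasmic gamma-actin gene Actg1 (-2.64). Keratins 8 and 18, the intermediate filament pair of hepatocytes and other simple epithelia, were also called. Krt8 fell from 1329.6, 582, 839.9 and 804 FPKM to 61.7 and 154 FPKM (-3.11 ± 0.47 log2 units, adjusted p = 0.0182). Krt18 fell from 1549, 918, 767 and 931 FPKM to 167 and 180.3 FPKM (-2.53 ± 0.35 log2 units, adjusted p = 0.0156). Both ended near the controls, which measured 140.1 and 118 FPKM for Krt8 and 130.4 and 113 FPKM for Krt18.

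Acute phase proteins, which hepatocytes secrete in response to inflammatory cytokines, were called in 1 direction, while summed neutrophil markers overlapped between the times. Of 32 tested, 8 fell and none rose, and the median was -1.57. Lcn2 (lipocalin 2, an iron-siderophore binding protein) measured 5936, 5894, 3466 and 1854 FPKM in the day 2 libraries and 58.4 and 296 FPKM in the day 14 libraries, a mean 24.2 times higher at day 2 (-4.87 ± 0.73 log2 units, adjusted p = 0.0181). Saa2, a serum amyloid A, measured 14183, 22070.0, 14223 and 3984 FPKM in the day 2 libraries and 242 and 1529 FPKM in the day 14 libraries (-4.24 ± 0.88 log2 units, adjusted p = 0.0349). In both, day 14 replicate 2 was several times above replicate 1 but still below every day 2 library, and for Lcn2 both day 14 libraries were above the controls (16.5 and 33 FPKM). Saa1, whose sequence is close to that of Saa2 so that reads may be divided uncertainly between them, was at 10572, 15888, 14345 and 4135 FPKM at day 2 and 508 and 3132 FPKM at day 14. It was not called (-2.98 ± 0.82 log2 units, adjusted p = 0.0658). Serpina3n fell from 683, 624, 1770.4 and 581 to 66.1 and 145 FPKM (-3.04, adjusted p = 0.0252). Serpina3m, another protease inhibitor of that cluster, fell from 880.2, 682, 662 and 281 to 20.4 and 50.5 FPKM (-4.12, adjusted p = 0.0147). Apcs (serum amyloid P) and Lrg1, a secreted glycoprotein, fell with differences of -2.66 and -1.96. The 3 fibrinogen chains were not called, with Fga at -2.33, adjusted p = 0.0605, Fgb at -1.58, adjusted p = 0.0791 and Fgg at -1.79, adjusted p = 0.0706, and their groups did not overlap. Hamp, the iron hormone hepcidin that IL-6 also induces, did not follow. It was at 16942, 17412, 7283 and 3217 FPKM at day 2 and 12713 and 11186 FPKM at day 14, with overlapping groups (0.39 ± 0.71 log2 units, adjusted p = 0.736). Both times were above the controls at 1453 and 2958 FPKM. None of 18 tested cytokines and NF-kB targets was called (median -0.31; 4 had an unadjusted p under 0.05). That median was -0.48 without day 2 replicate 4. Cxcl1, a neutrophil chemokine, was at 63.8, 252, 202 and 30.4 FPKM at day 2 and 33.3 and 30.4 FPKM at day 14 (-1.62, adjusted p = 0.230).

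Metallothioneins, small proteins that bind zinc and copper, accounted for 2 of those 8. Their promoters are shown because both genes moved together and because metallothionein transcription is known to run through metal response elements. Each sequence is the 250 bases before the RefSeq start on GRCm38.p6, plus strand, at chr8:94178839-94179088 for Mt1 and chr8:94172368-94172617 for Mt2, and capitals mark the core TGCACNC or TGCGCNC on either strand:
Mt1: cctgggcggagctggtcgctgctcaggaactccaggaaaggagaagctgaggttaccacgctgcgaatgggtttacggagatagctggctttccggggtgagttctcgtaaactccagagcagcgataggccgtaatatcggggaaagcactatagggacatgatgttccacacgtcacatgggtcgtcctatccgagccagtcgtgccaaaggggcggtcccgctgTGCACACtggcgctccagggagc
Mt2: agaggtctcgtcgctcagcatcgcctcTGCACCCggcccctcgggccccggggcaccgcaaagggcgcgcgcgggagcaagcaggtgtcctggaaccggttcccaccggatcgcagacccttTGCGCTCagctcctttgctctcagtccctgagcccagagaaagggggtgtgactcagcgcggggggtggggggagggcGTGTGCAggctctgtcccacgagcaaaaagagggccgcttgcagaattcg
Within these windows the core was found once for Mt1 and 3 times for Mt2, and bases outside them were not searched. Over 32851 RefSeq promoter windows of that length, 21.4% held it at least once and 1.26% at least 3 times, so a single match is common. Mt2 measured 5368, 8891, 6151 and 3488 FPKM in the day 2 libraries and 433 and 957 FPKM in the day 14 libraries, with the controls at 5.09 and 91.7 FPKM (-3.13 ± 0.49 log2 units, adjusted p = 0.0189). Mt1 measured 6165, 15950.0, 6671 and 4333 FPKM in the day 2 libraries and 628 and 1599 FPKM in the day 14 libraries, with the controls at 16.1 and 128 FPKM (-2.86 ± 0.60 log2 units, adjusted p = 0.0355). Both fell from day 2 and both stayed above the controls in each day 14 library. Among 17 tested metallothionein and oxidative stress genes, 5 fell and none rose. The other 3 are targets of the oxidative stress factor NRF2. Srxn1 (sulfiredoxin) fell from 93.4, 48.7, 47.8 and 31.6 to 7.11 and 8.62 FPKM (-2.57, adjusted p = 0.0208). The quinone reductase Nqo1 fell from 11.7, 14.2, 26.4 and 12 to 2.78 and 4.26 FPKM (-1.86, adjusted p = 0.0318). The glutathione transferase Gsta1 fell from 113, 60.3, 161 and 51.8 to 15.2 and 12 FPKM (-2.60, adjusted p = 0.0266).

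Bile acids are made from cholesterol by hepatocytes and exported into bile. Of 27 tested genes of their synthesis and transport, 9 rose and none fell, beside 4.95% of all genes called higher, and the median was 0.91 (0.54 without day 14 replicate 2). Cyp7a1, the rate-limiting enzyme of the classic pathway, measured 0, 0.0173, 2.42 and 0.744 FPKM in the day 2 libraries and 33.2 and 46.7 FPKM in the day 14 libraries. It was at or near 0 in 2 day 2 libraries and higher at day 14 than in any of them (4.68 ± 0.52 log2 units, adjusted p = 0.0103), with the controls at 10.8 and 28.7 FPKM. Cyp8b1, the sterol hydroxylase that directs synthesis to cholic acid, measured 0.534, 5.04, 0.810 and 0.527 FPKM in the day 2 libraries and 12.3 and 66.3 FPKM in the day 14 libraries (3.74 ± 0.77 log2 units, adjusted p = 0.0344). Its rise left it below the controls, at 191 and 189 FPKM, and the 2 day 14 libraries differed several fold. The enzymes of the alternative pathway rose too. Cyp27a1 rose from 53, 84.9, 164 and 63.6 to 476 and 413 FPKM (2.41, adjusted p = 0.0283). Cyp7b1 rose from 10.7, 9.89, 34 and 23.6 to 168 and 229.9 FPKM (3.44, adjusted p = 0.0180). Downstream, Hsd3b7, a steroid dehydrogenase, rose by 1.64, and Slc27a5, the bile acid CoA ligase, by 1.74. Of the transporters, the uptake carrier Slco1a1 rose from 1.41, 1.16, 9.1 and 7.92 to 27.7 and 38 FPKM (2.85, adjusted p = 0.04996), still below the controls at 161 and 164 FPKM. The canalicular conjugate pump Abcc2 rose from 27.8, 21.6, 68.3 and 48.8 to 174 and 131 FPKM (1.97, adjusted p = 0.0477). Abcb11, the canalicular bile salt export pump, was at 63.1, 58.5, 92.3 and 92.7 FPKM at day 2 and 188 and 137 FPKM at day 14, with separate groups but no call (1.09, adjusted p = 0.0753). Nr1h4, the bile acid receptor FXR, rose from 20.5, 11.5, 40.1 and 23.5 FPKM to 169.7 and 111 FPKM, above both controls at 47.2 and 56.7 FPKM (2.60 ± 0.47 log2 units, adjusted p = 0.0255). Its target Nr0b2 (SHP), a repressor of Cyp7a1, measured 57.5, 67.1, 36 and 33 FPKM at day 2 and 61.6 and 51.9 FPKM at day 14, with overlapping groups (0.28, adjusted p = 0.622).

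Cytochromes P450 oxidise drugs and other foreign compounds. Of 33 tested, 26 had a positive difference, 4 rose and none fell, beside 4.95% of all genes called higher (median 1.17). Cyp2c54 rose from 5.17, 3.34, 47 and 19.2 FPKM to 192 and 208 FPKM (3.98 ± 0.91 log2 units, adjusted p = 0.0422). Its neighbour Cyp2c37 rose from 16.4, 23.3, 49.1 and 38.5 FPKM to 199.8 and 177 FPKM (2.65 ± 0.44 log2 units, adjusted p = 0.0216). The controls, at 198 and 211 FPKM for Cyp2c54 and 176 and 165 FPKM for Cyp2c37, were close to day 14. Both genes belong to a cluster of similar genes, so their reads may be divided uncertainly. Cyp2u1 and Cyp2c69 rose by 1.69 and 1.17. The best known members differed widely among the day 2 libraries and were not called. Cyp1a2, the caffeine-metabolising pericentral enzyme, was at 3.89, 5.34, 462 and 103 FPKM at day 2 and 548 and 779 FPKM at day 14 (4.23, adjusted p = 0.164). Cyp2e1, the ethanol-inducible one, was at 157, 514, 859.9 and 347 FPKM at day 2 and 926 and 3674 FPKM at day 14, where groups did not overlap (2.22, adjusted p = 0.108). Cyp3a11 was at 89.8, 337, 1020.3 and 722 FPKM at day 2 and 731 and 1159 FPKM at day 14, with day 2 replicate 3 inside the day 14 range (1.25, adjusted p = 0.389). Among 36 tested conjugating enzymes of phase II, 6 rose and 1 fell (median 0.68). Besides Sult2a8, the largest rise was in the glucuronosyltransferase Ugt2b38, from 1.14, 0.953, 3.01 and 1.33 to 59.1 and 17.4 FPKM (3.73, adjusted p = 0.0147). The sulfotransferase Sult5a1 rose from 2.68, 2.09, 2.46 and 1.15 to 29.3 and 17.3 FPKM (2.96, adjusted p = 0.0103). Ugt3a2, Ugt2b5 and Sult1d1 rose by 2.05, 1.65 and 1.19, and the glutathione transferase Gstt3 fell (-1.52, adjusted p = 0.0390).

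Genes that are higher in male than in female mouse liver, a pattern set by pulsed growth hormone acting through STAT5b, had the most calls of any list. All 33 tested had a positive difference, 15 rose and none fell, and the median was 2.15. Leaving out single libraries kept that median from 1.92 (without day 2 replicate 4) to 2.31 (without day 2 replicate 3). Besides Car3, Hsd3b5, a steroid reductase of male liver, rose from 0.214, 0.195, 4.01 and 0.298 to 66.7 and 49 FPKM, with the controls at 206 and 189 FPKM (5.05, adjusted p = 0.0116). Selenbp2, a selenium binding protein, rose from 24.7, 15.7, 405 and 99.3 FPKM to 3031 and 1736 FPKM, above the controls at 1228 and 1079.7 FPKM (5.15 ± 1.19 log2 units, adjusted p = 0.0438). Of the major urinary proteins, the secreted pheromone carriers, Mup3 rose from 2821, 3851, 3489.5 and 2534 to 14904 and 12944 FPKM (2.15, adjusted p = 0.0182). Mup11 rose from 1384, 2081, 1591 and 441 to 8323 and 5786 FPKM (2.54, adjusted p = 0.0495). The other Mup genes tested were not called, and their near-identical copies make single-gene values uncertain. Igfals, the growth hormone induced subunit of the circulating IGF complex, rose by 2.18 and the peroxisomal CoA hydrolase Nudt7 by 3.45. The same list holds Cyp4a12a, Cyp7b1, Cyp2u1, Slco1a1, Ugt2b38, C6, C8a and C8b, which are counted in other lists too. Elovl3, a fatty acid elongase, was at 11.3, 19.7, 3.12 and 11.5 FPKM at day 2 and 12 and 33.8 FPKM at day 14, far under the controls at 329.9 and 382 FPKM, with no call (0.99, adjusted p = 0.356). Of 29 female-biased genes 18 were tested, of which 2 fell (Sult1e1 and the steroid hydroxylase Cyp17a1, -1.30, adjusted p = 0.0349) and 1 rose (Cyp2c69), so that list did not move as one; the sex of the mice is not given.

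**Figure D4:**
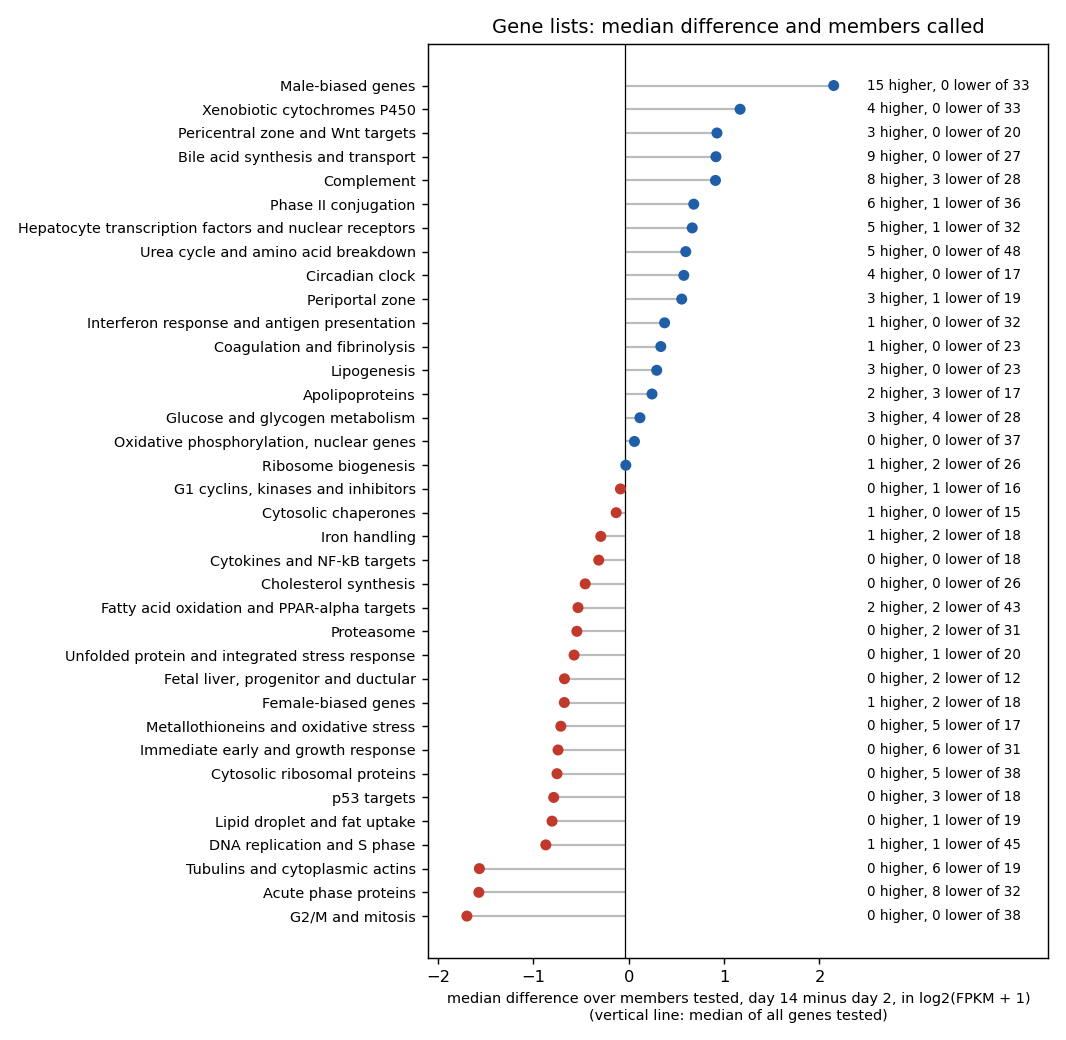
Median difference (day 14 minus day 2, log2(FPKM + 1)) over the tested members of 36 gene lists, with the number of members called in each direction at the right; the vertical line is the median of all genes tested, -0.04. Male-biased genes lie highest, at 2.15, and genes of G2/M and mitosis lowest, at -1.70 with no member called.

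In fat and sugar metabolism calls fell on single genes in both directions. Thrsp (Spot 14), an activator of fat synthesis, measured 13.4, 17.5, 134 and 6.86 FPKM in the day 2 libraries and 551 and 972 FPKM in the day 14 libraries (4.99 ± 1.02 log2 units, adjusted p = 0.0337). Other regulators of lipogenesis rose as well. Mlxipl, the glucose sensor ChREBP, rose from 25.2, 32.1, 59.2 and 60.1 to 398 and 197 FPKM (2.74, adjusted p = 0.0225). Srebf1, the insulin-driven factor SREBP1, rose from 21.2, 55.5, 59.1 and 26 to 146 and 143 FPKM (1.94, adjusted p = 0.0470). These 3 were the only ones called among 23 tested lipogenic genes (median 0.29). Leaving out 1 library at a time moved that median from 0.14 (without day 2 replicate 4) to 0.53 (without day 2 replicate 3). The enzymes were not called, with Fasn (fatty acid synthase) at 57.5, 61.3, 141 and 30.7 FPKM at day 2 and 180.3 and 123 FPKM at day 14 (1.24, adjusted p = 0.187). The desaturase Scd1 was at 23.4, 47.9, 1092 and 16.7 FPKM at day 2 and 259 and 528 FPKM at day 14, where day 2 replicate 3 was above both day 14 libraries (2.42, adjusted p = 0.333). In glycogen metabolism the liver glycogen synthase Gys2 rose from 21.4, 36.3, 29.97 and 34.8 to 113 and 136 FPKM (2.01, adjusted p = 0.0174). The glycogen-targeting subunit Ppp1r3b rose from 3.19, 2.84, 18.4 and 9.74 to 109 and 98.2 FPKM (3.78, adjusted p = 0.0228). Besides Igfbp1, the falls were in 3 genes of pyruvate and lactate handling. The lactate dehydrogenase Ldha fell from 1229, 2135, 1547 and 1691 to 81.2 and 289 FPKM (-3.39, adjusted p = 0.0182). The pyruvate kinase Pkm fell from 39, 33.1, 16.4 and 42.2 to 4.9 and 4.58 FPKM (-2.47, adjusted p = 0.0208), and the lactate carrier Slc16a1 by 1.65. In all, 4 of 28 tested genes of glucose and glycogen metabolism fell and 3 rose. The gluconeogenic gene Pck1 was at 1609.7, 902, 619.7 and 831 FPKM at day 2 and 1484 and 1318 FPKM at day 14, with overlapping groups (0.59, adjusted p = 0.376).

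Among 43 tested genes of fatty acid oxidation and PPAR-alpha targets, 2 rose and 2 fell, a share close to the 8.31% of all genes (median -0.53). Cyp4a14, a fatty acid hydroxylase that fasting and PPAR-alpha induce, fell from 219.6, 729, 35.5 and 279 FPKM to 1.2 and 2.65 FPKM (-6.15 ± 1.03 log2 units, adjusted p = 0.0217). Cyp4a31 fell from 11.9, 15.3, 9.86 and 19.2 FPKM to 1.34 and 0.431 FPKM (-3.00 ± 0.34 log2 units, adjusted p = 0.0103). The male-biased member of the same family, Cyp4a12a, went the other way, from 28.9, 43, 13.5 and 23 to 217 and 124 FPKM (2.67, adjusted p = 0.0230). Acsl1, the main long-chain acyl-CoA synthetase, rose from 36.1, 76.8, 65.2 and 41.5 to 274 and 208 FPKM (2.16, adjusted p = 0.0226). Cyp4a genes are similar in sequence, so single values carry that uncertainty. Plin2, the coat protein of hepatocyte lipid droplets, was at 1559, 2057, 184 and 417 FPKM at day 2 and 61.6 and 117 FPKM at day 14 with separate groups but no call (-3.04, adjusted p = 0.0890). Plin3, another droplet coat protein, fell from 27.6, 20.3, 22.7 and 15.5 FPKM to 7.01 and 8.32 FPKM (-1.36 ± 0.28 log2 units, adjusted p = 0.0352). The fat-storing Cidec was at 142, 154, 1.64 and 21 FPKM at day 2 and 0.528 and 1.43 FPKM at day 14: all day 2 libraries were above day 14, replicate 3 barely so, and it was not called (-4.13, adjusted p = 0.131). None of 26 tested genes of cholesterol synthesis was called, with 3 at an unadjusted p under 0.05 (median -0.46). That median was -0.018 without day 14 replicate 1 and -0.83 without day 14 replicate 2. Fdps, farnesyl diphosphate synthase, was at 348, 303, 223 and 58.3 FPKM at day 2 and 77.4 and 161 FPKM at day 14 (-0.78, adjusted p = 0.500).

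Of 17 tested apolipoprotein and lipase genes, 2 rose and 3 fell. Apoa4, which fasting and fat loading induce in liver, fell from 4499, 7036, 908 and 1542 FPKM to 101 and 70.8 FPKM (-4.92 ± 0.80 log2 units, adjusted p = 0.0210). An antisense gene on the other strand, Gm10680, reached 843 FPKM, and reads of the 2 cannot be told apart without strand. Apoc2, the lipoprotein lipase activator, fell from 5377, 6828, 1829.9 and 2841 to 586 and 533 FPKM (-2.73, adjusted p = 0.0326). Apom, the carrier of sphingosine phosphate, fell from 181, 283, 638 and 356 to 29.8 and 66.7 FPKM (-2.85, adjusted p = 0.0283), below its controls at 285 and 282 FPKM. Apoc1 rose from 6290.2, 10183, 7386 and 7200.0 to 25851 and 21804 FPKM, opposite in direction to its neighbour Apoc2 (1.64, adjusted p = 0.0351), and the hepatic lipase gene Lipc rose by 1.46.

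The urea cycle disposes of the ammonia that amino acid breakdown releases. Of 48 tested genes of the urea cycle and amino acid breakdown, 5 rose and none fell, beside 4.95% of all genes called higher (median 0.60). Leaving out 1 library at a time moved that median from 0.32 (without day 14 replicate 2) to 0.95 (without day 14 replicate 1). Otc, the mitochondrial ornithine transcarbamylase, measured 17.7, 16.1, 66.1 and 32.7 FPKM in the day 2 libraries and 294 and 256 FPKM in the day 14 libraries. It was the 1 urea cycle enzyme called (3.24 ± 0.55 log2 units, adjusted p = 0.0222), and day 14 was close to the controls at 227 and 221 FPKM. Cps1, the step before it, was at 210.4, 113, 413 and 301 FPKM at day 2 and 164 and 359 FPKM at day 14 with overlapping groups (0.06, adjusted p = 0.957) and both times below the controls at 726 and 827 FPKM. Prodh2, which breaks down hydroxyproline, rose from 24.6, 14.9, 75.7 and 84 FPKM to 452 and 302 FPKM (3.20 ± 0.71 log2 units, adjusted p = 0.0394). The proline dehydrogenase Prodh rose from 8.98, 20.6, 33.2 and 23.3 to 151 and 157 FPKM (2.91, adjusted p = 0.0208). Both were above the controls at day 14. Csad, the taurine synthesis enzyme, and Gls2, the liver glutaminase, rose by 2.09 and 1.42.

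Complement genes were called in both directions. Of 28 tested, 8 rose, 3 fell and 17 were not called (median 0.91). The 8 were C1s1, C2, Hc (C5), C6, C8a, C8b, C8g and the regulator Cd59a, all but the last secreted mainly by hepatocytes, with differences of 1.66, 1.88, 1.98, 2.16, 2.59, 2.00, 1.19 and 1.16. C8a, a chain of the membrane attack complex, rose from 59.4, 67.1, 198 and 179.7 FPKM to 814 and 539 FPKM (2.59 ± 0.57 log2 units, adjusted p = 0.0394). C1qa, C1qb and C1qc, which Kupffer cells make, fell, C1qb from 30.9, 37.1, 24.6 and 37.7 to 7.84 and 9.58 FPKM (-1.78, adjusted p = 0.0182), below the controls at 28.7 and 22.9 FPKM. Among 23 tested coagulation genes 1 rose and none fell: Klkb1 (plasma prekallikrein), from 3.32, 11.5, 14.2 and 12 FPKM to 44.4 and 44.9 FPKM (2.17 ± 0.50 log2 units, adjusted p = 0.0446), which overlaps Cyp4v3 on the same strand, so that reads may be shared.

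In iron handling, of 18 tested genes 1 rose and 2 fell. Hamp2, the second hepcidin gene, rose from 0.257, 1.94, 3.58 and 0.536 FPKM to 50.7 and 119 FPKM (5.12 ± 0.58 log2 units, adjusted p = 0.0103), while its neighbour Hamp was not called as given above; the 2 copies are similar. Id1, a target of the BMP signal that drives hepcidin, fell from 176, 220.0, 96.4 and 107 to 36.9 and 24.1 FPKM (-2.21, adjusted p = 0.0269), still above the controls at 2.98 and 2.79 FPKM.

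Hepatocyte transcription factors rose in 5 cases of 32 tested and fell in 1 (median 0.67). Cebpa, which holds hepatocytes in the differentiated state, rose from 31.5, 44.6, 50.03 and 21.3 to 166 and 168 FPKM (2.22, adjusted p = 0.0217). Cebpd, its acute phase relative, fell from 35.7, 39.1, 35.9 and 30.2 to 12.9 and 12.9 FPKM (-1.37, adjusted p = 0.0220). Onecut1 (HNF6) rose from 1.4, 0.904, 2.58 and 1.99 to 7.18 and 18.8 FPKM (2.27, adjusted p = 0.0263). Onecut2 rose from 3.42, 3.48, 3.83 and 4.48 FPKM to 8.57 and 9.26 FPKM (1.05 ± 0.22 log2 units, adjusted p = 0.0351). Tbx3, a Wnt-dependent factor, rose from 1.65, 0.590, 2.78 and 3.06 to 15.7 and 8.83 FPKM (2.18, adjusted p = 0.0318). The master regulator Hnf4a, at 101, 91.7, 155 and 72.1 FPKM at day 2 and 136 and 120.5 FPKM at day 14, had overlapping groups (0.34, adjusted p = 0.540). Of 20 tested genes of the pericentral zone and of Wnt signalling, Rnf43, the Wnt receptor ligase, Tbx3 and Cyp27a1 rose and none fell. Axin2, the general Wnt target, was at 0.399, 0.758, 1.65 and 2.6 FPKM at day 2 and 6.96 and 3.82 FPKM at day 14 with separate groups (1.49, adjusted p = 0.0718). The pericentral glutamine synthetase Glul was at 33, 28.9, 273 and 157 FPKM at day 2 and 215 and 318 FPKM at day 14, split between the day 2 libraries as the P450s were (1.69, adjusted p = 0.265). Of 19 tested periportal genes 3 rose and 1 fell. Etnppl, which degrades phosphoethanolamine, rose from 4.76, 3.16, 5.37 and 5.52 FPKM to 34.2 and 24.1 FPKM (2.40 ± 0.29 log2 units, adjusted p = 0.0116). Pigr, the carrier of IgA into bile, rose from 35.3, 41, 76.5 and 49.1 to 147 and 168 FPKM (1.68, adjusted p = 0.0349). Among 12 tested of 23 fetal, progenitor and ductular genes, Ly6d and Afp fell and none rose. Afp, the fetal albumin, went from 32.1, 3.84, 9.83 and 20.1 FPKM to 1.22 and 0.213 FPKM (-3.08 ± 0.72 log2 units, adjusted p = 0.0455).

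The circadian clock is known to pace much of liver metabolism. The hour of sampling is not given, so time of day and time after surgery cannot be told apart for these genes. Of 17 tested clock genes, 4 rose and none fell (median 0.58). They were Dbp, Per2, Per3 and Ciart. The promoters of 2 of them are shown because clock factors are known to act through E-boxes (CACGTG) and D-boxes (TTATGCAA or TTATGTAA). Each is the 250 bases before the RefSeq start on GRCm38.p6, written along the gene's minus strand, from chr3:95882229-95882478 for Ciart, with E-boxes in capitals, and chr4:151044666-151044915 for Per3, with D-boxes in capitals:
Ciart: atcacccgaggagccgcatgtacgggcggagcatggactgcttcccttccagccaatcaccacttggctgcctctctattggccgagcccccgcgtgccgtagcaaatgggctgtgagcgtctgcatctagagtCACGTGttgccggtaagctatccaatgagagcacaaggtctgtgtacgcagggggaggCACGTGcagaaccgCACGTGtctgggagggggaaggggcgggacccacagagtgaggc
Per3: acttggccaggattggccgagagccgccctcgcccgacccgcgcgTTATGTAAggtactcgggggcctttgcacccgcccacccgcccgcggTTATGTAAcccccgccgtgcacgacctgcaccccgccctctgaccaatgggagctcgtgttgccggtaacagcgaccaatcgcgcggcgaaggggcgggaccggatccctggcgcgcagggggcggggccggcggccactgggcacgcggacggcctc
Ciart, a repressor of the clock, held 3 E-boxes, and 0.0609% of 32851 promoter windows held 3 or more (6.02% at least 1). Per3 held 2 D-boxes, and 0.0335% of windows held 2 or more (1.5% at least 1); both strands were searched. Ciart was at 6.48, 14.4, 8.76 and 3.73 FPKM at day 2 and 30.7 and 31.4 FPKM at day 14, with the controls at 0.165 and 0.587 FPKM (1.91 ± 0.44 log2 units, adjusted p = 0.0446). Per3 was at 1.02, 1.67, 3.26 and 2.71 FPKM at day 2 and 12.4 and 9.88 FPKM at day 14, with the controls at 0.919 and 0.742 FPKM (1.99 ± 0.34 log2 units, adjusted p = 0.0226). Both were higher at day 14 than at day 2, and each operated library was above both controls. Dbp, an output factor that binds D-boxes, was at 2.25, 8.78, 8.8 and 8.4 FPKM at day 2 and 32 and 31.5 FPKM at day 14 (2.15 ± 0.48 log2 units, adjusted p = 0.0407) and overlaps Sphk2 on the other strand. Per2 was at 4.65, 9.2, 12.4 and 6.02 FPKM at day 2 and 39.9 and 20.5 FPKM at day 14 (1.79, adjusted p = 0.0470). Arntl (BMAL1), the activator, ran the other way without a call, at 3.7, 5.998, 1.64 and 1.52 FPKM at day 2 and 1.27 and 1.1 FPKM at day 14 and 6.91 and 8.98 FPKM in the controls (-0.82, adjusted p = 0.261). Leaving out 1 library at a time moved that median from 0.23 (without day 2 replicate 1) to 1.12 (without day 2 replicate 2). In day 2 replicate 2 the list's median lay at -0.07 relative to the day 14 mean.

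Immediate early and growth response genes fell in 6 of 31 tested cases and rose in none (median -0.74). Growth and stress signals induce the immediate early ones within minutes. Of the 31, 6 reached 1 FPKM in 1 group only. Fos and Hgf were among them and reached it only at day 2, so they could only be called lower. Over all 35 listed genes the median was -0.62. Fos, a subunit of the AP-1 factor, measured 4.73, 5.42, 5.16 and 6.98 FPKM in the day 2 libraries and 0.651 and 0.669 FPKM in the day 14 libraries (-1.97, adjusted p = 0.0116). Junb fell from 57.3, 219, 107 and 67.3 to 13.8 and 14 FPKM (-2.72, adjusted p = 0.0291). Klf6, an injury-induced zinc finger factor, fell from 8.63, 14.4, 9.25 and 14.5 to 1.53 and 1.74 FPKM (-2.24, adjusted p = 0.0141). In these 3 the day 14 libraries were near the controls. Btg2 and Dusp6, a phosphatase that ERK signalling induces, fell as well (-2.79 and -0.94), as did Hgf, the hepatocyte growth factor made by stellate cells, from 4.4, 1.56, 1.75 and 4.2 to 0.264 and 0.244 FPKM (-1.58, adjusted p = 0.0477). Myc was at 9.82, 8.13, 4.89 and 5.18 FPKM at day 2 and 3.79 and 6.98 FPKM at day 14, with overlapping groups (-0.32, adjusted p = 0.566).

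Of 38 tested cytosolic ribosomal protein genes, 5 fell and none rose, and 36 differences were negative (median -0.75). Rps4x fell from 637, 841, 645 and 585 FPKM to 118 and 242 FPKM (-1.98 ± 0.36 log2 units, adjusted p = 0.0264). Rpl3, Rpl5, Rplp0 and Rps3 fell by 1.54 to 1.82. Of 31 proteasome subunits 2 fell, among them Psmd8 of the lid, from 235, 319, 155 and 142 FPKM to 38 and 61.7 FPKM (-2.04 ± 0.41 log2 units, adjusted p = 0.0327). Of 26 tested genes of ribosome biogenesis 1 rose and 2 fell, a share near the 8.31% of all genes called. The box C/D protein Nop56 rose from 29.6, 25.7, 24.3 and 40.2 to 104 and 60.5 FPKM (1.41, adjusted p = 0.0462). The box H/ACA proteins Nhp2 and Gar1 fell. Gar1 went from 41.9, 47.1, 24.9 and 34.4 FPKM to 9.74 and 13.6 FPKM (-1.57 ± 0.32 log2 units, adjusted p = 0.0337). Nhp2 went from 105, 124, 83.4 and 99.4 FPKM to 23.3 and 45.1 FPKM (-1.62 ± 0.34 log2 units, adjusted p = 0.0343). The day 14 library with the larger mitochondrial share, replicate 1, had the lower value for Rps4x, Psmd8, Gar1 and Nhp2 and the higher value for Nop56. Whether that share bears on these values was not tested. The ribosomal protein median was -0.48 without day 14 replicate 1 and -0.87 without day 14 replicate 2. None of 37 tested nuclear genes of oxidative phosphorylation was called, with 10 at an unadjusted p under 0.05 (median 0.06). That median changed sign with the day 14 library left out, at 0.39 without replicate 1 and -0.20 without replicate 2. Uqcrq, a subunit of complex III, was at 1049, 1972, 826 and 980.0 FPKM at day 2 and 1730.0 and 1624 FPKM at day 14 (0.56, adjusted p = 0.387). Among 20 tested genes of the unfolded protein and integrated stress responses, Atf5 alone was called: it fell from 153, 153, 149 and 116 FPKM to 49.9 and 56.5 FPKM, below the controls at 174 and 214 FPKM (-1.40 ± 0.26 log2 units, adjusted p = 0.0266). Hspb1, a small heat shock protein, rose from 21.9, 9.36, 7.9 and 22 FPKM to 89.6 and 49.7 FPKM (2.19 ± 0.50 log2 units, adjusted p = 0.0418), the 1 call among 15 tested cytosolic chaperones. Nhp2 and Atf5 overlap Rmnd5b and Nup62, which reached 10.6 and 14.7 FPKM, so reads may be shared.

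Markers of other cell types were called in some lists and not in others. In bulk tissue, fewer cells of a type and less RNA per cell cannot be told apart. Of 15 Kupffer cell markers, all tested, 5 fell and none rose (median -1.24), and their summed FPKM was 223, 275, 235 and 314 at day 2, 108 and 119 at day 14 and 248 and 206 in the controls. Marco, a scavenger receptor of activated macrophages, fell from 35.5, 80.4, 33.4 and 51 FPKM to 4.36 and 6.08 FPKM (-2.96 ± 0.39 log2 units, adjusted p = 0.0147). Unlike the summed list, Marco at day 14 was above the controls, at 2.38 and 1.82 FPKM. Vsig4, a complement receptor of resident Kupffer cells, fell from 6.8, 6.71, 7.2 and 8.89 to 2.55 and 2.54 FPKM (-1.24, adjusted p = 0.0256). Their defining lectin Clec4f was at 20.1, 14.1, 40.1 and 46.7 FPKM at day 2 and 34.8 and 31.1 FPKM at day 14 with overlapping groups (0.27, adjusted p = 0.732). Of 13 tested monocyte and recruited macrophage markers (17 listed), 4 fell and none rose: Plac8, Trem2, the tetraspanin Cd9 and fibronectin (Fn1), by 1.24 to 1.96. Cd9 went from 66.3, 39.1, 42 and 69.5 FPKM to 14.2 and 11.5 FPKM (-1.96 ± 0.33 log2 units, adjusted p = 0.0216). Fn1 and Cd9 are also expressed by other liver cells. Of 8 tested neutrophil markers (16 listed) none was called, with 2 at an unadjusted p under 0.05. S100a9 was at 75.5, 160.1, 43.3 and 15.1 FPKM at day 2 and 6.97 and 37.2 FPKM at day 14 (-1.64, adjusted p = 0.291). The list summed to 152, 359.8, 91.4 and 34.9 FPKM at day 2 and 16.8 and 79.2 FPKM at day 14. The higher day 14 value was in replicate 2, which also had the higher Saa2 and Lcn2.

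Among stellate cell and matrix markers, 3 of 23 tested fell and none rose (median -0.90). Of those 23, 8 reached 1 FPKM in 1 group only. Timp1 and Col1a1 were among them and reached it only at day 2, so they could only be called lower. Over all 24 listed genes the median was -0.87. Col4a1 and Col4a2, the chains of basement membrane collagen IV, fell by 2.27 and 1.77. Timp1, the metalloprotease inhibitor, fell from 12.6, 13.8, 2.18 and 10.9 FPKM to 0.408 and 0.308 FPKM (-2.78 ± 0.61 log2 units, adjusted p = 0.0391). The fibrillar collagen Col1a1 was at 3.07, 1.07, 5.46 and 13.4 FPKM at day 2 and 0.459 and 0.568 FPKM at day 14 and was not called (-1.81, adjusted p = 0.131). Of 16 sinusoidal endothelial markers, Lyve1, a hyaluronan receptor, fell from 4.09, 4.67, 1.76 and 4.07 FPKM to 0.138 and 0.384 FPKM (-1.84 ± 0.34 log2 units, adjusted p = 0.0266). Here day 2 was like the controls, at 4.12 and 3.78 FPKM, and day 14 was the low group. Of the 2 groups compared, only day 2 reached 1 FPKM for Lyve1, so it could only be called lower. In both mesothelial markers that were tested, of 8 listed, the call was that of Krt8 and Krt18, which hepatocytes also express.

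Among lymphocyte markers, the few called were mostly higher at day 14. Of 18 T and NK cell markers 5 were tested, and 2 rose. Of those 5, 4 reached 1 FPKM in 1 group only. The 2 that rose reached it only at day 14, so they could only be called higher. All 18 markers summed to 2.27, 1.99, 3.13 and 2.85 FPKM at day 2 and 26.3 and 15.1 FPKM at day 14. In the controls the sum was 6.82 and 6.21 FPKM. Gzmb, the cytotoxic protease granzyme B, was at 0, 0.0545, 0 and 0.0837 FPKM at day 2 and 5.48 and 1.7 FPKM at day 14 (2.02 ± 0.36 log2 units, adjusted p = 0.0238). Trbc2, a T cell receptor constant region, was at 0.130, 0.143, 0.242 and 0.113 FPKM at day 2 and 1.67 and 1.26 FPKM at day 14 (1.09, adjusted p = 0.0344). The T cell receptor partner Cd3e stayed at or below 0.425 FPKM in all 6 libraries. Of 11 B and plasma cell markers 4 were tested, and 2 rose and 1 fell; the list summed to 159, 171, 152 and 112 FPKM at day 2 and 79.98 and 98.8 FPKM at day 14, and most of the day 2 sum was Sdc1. Igkc, the kappa light chain constant region, rose from 15, 10.8, 6.35 and 3.04 FPKM to 44 and 45.7 FPKM, with the controls at 5.22 and 2.55 FPKM (2.41 ± 0.52 log2 units, adjusted p = 0.0382). Ighm, the IgM heavy chain, rose from 2.8, 1.35, 2.05 and 1.16 to 8.02 and 7.51 FPKM (1.66, adjusted p = 0.0229). Sdc1 (syndecan 1), which hepatocytes also express, fell (-2.14, adjusted p = 0.0164). The antigen presentation gene B2m, the light chain of class I molecules, rose from 952, 1132, 1253 and 1752 FPKM to 6080.4 and 3975 FPKM, the 1 call among 32 tested interferon and antigen presentation genes (1.99 ± 0.37 log2 units, adjusted p = 0.0266). Alas2, the erythroid enzyme of haem synthesis, rose from 10.1, 17.7, 15.3 and 21.4 FPKM to 138 and 146 FPKM (3.10 ± 0.32 log2 units, adjusted p = 0.0101). The globin gene Hba-a1, at 183, 662, 138 and 276 FPKM at day 2 and 1097 and 466 FPKM at day 14, was not called (1.45, adjusted p = 0.191). The part of these cells in the gene groups above was not tested.

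**Figure D5:**
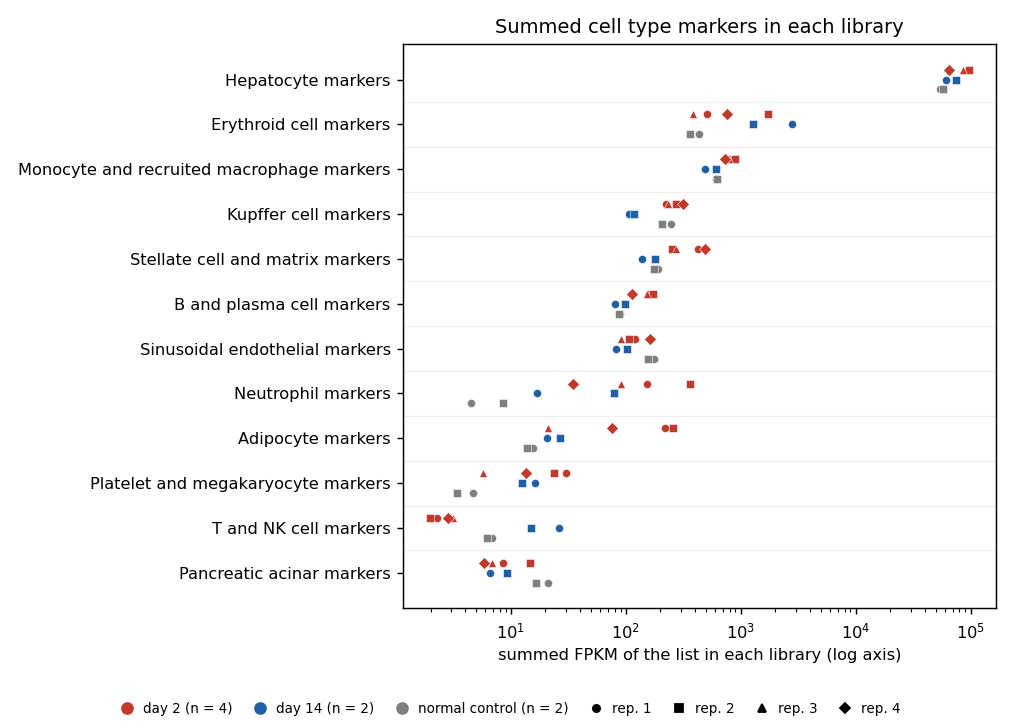
Summed FPKM of 12 marker lists in each library on a log axis, with day 2 in red, day 14 in blue and normal controls in grey, and a marker shape for each replicate number. Kupffer cell markers sum to 108 and 119 FPKM at day 14, below all day 2 and control libraries, and T and NK cell markers sum to 15.1 and 26.3 FPKM, above all of them.

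Markers of tissues that could be carried over at dissection were near 0 or were not called. Of 10 pancreatic acinar markers 5 were at 0 in all 6 libraries (Prss2, Cpa1, Amy2a5, Try4 and Cel) and only Cela1 was tested, at 8.47, 14.5, 6.42 and 5.72 FPKM at day 2 and 5.53 and 8.36 FPKM at day 14 (-0.24, adjusted p = 0.694). Of 8 adipocyte markers Lep was at 0 throughout, Adipoq and Plin1 stayed at or below 0.168 FPKM, and Cidec and Fabp4, which the fatty or inflamed liver also expresses, carried the sum, which was 219, 256, 21 and 75.6 FPKM at day 2 and 20.7 and 26.6 FPKM at day 14. Of 8 muscle markers only Mylpf was tested, at 0.950, 0.700, 1.49 and 0.686 FPKM at day 2 and 2.97 and 0.495 FPKM at day 14 (0.34, adjusted p = 0.609). Platelet Pf4 was at 20.4, 16.4, 2.25 and 7.81 FPKM at day 2 and 5.64 and 3.7 FPKM at day 14 (-0.86, adjusted p = 0.449), and none of 4 tested platelet genes was called.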

How the data were processed

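Livers were profiled by RNA sequencing after Trizol extraction and TruSeq library preparation, per the labels' protocols. The authors deposited 1 table of FPKM for 47719 genes and 8 libraries, of which 25829 genes were at 0 in all 8. HTSeq, DESeq2, Cufflinks 2.2.1 and HISAT2 2.10 are named in the submitters' processing notes, with builds GRCm38 and mm9; which of them made the table, and whether strand was used, is not given in the sources used here. FPKM divides reads by transcript length and by the library's total, so an abundant class such as mitochondrial transcripts can lower all other values. Day 14 replicate 1, with 43.3% of its FPKM in mitochondrially encoded genes, also had the largest summed FPKM, at 1298005. Whether its other values were lowered was not tested. Read depth cannot be recovered.

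Groups came from the age and title labels. Spreadsheet dates that stood in place of 27 symbols were replaced through the gene identifiers, and 47219 identifiers matched the gene name table. Genes that reached 1 FPKM in 2 or more of the 6 libraries were fitted as log2(FPKM + 1) with limma 3.58.1 (R 4.3.3; empirical Bayes with a mean trend, 4 residual and 3.39 prior degrees of freedom, two-sided), and p-values were adjusted by Benjamini-Hochberg over all 11990 genes. All adjusted p-values in the text are from this test unless another setting is named. A list is described by its counts and its median.

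The rule for named genes left out unnamed gene models and pseudogenes. It took, in each direction, the 8 called genes of largest difference with separate groups and a higher group averaging 5 FPKM or more. It also took the 2 called members of largest difference in each leading list and 1 in each other list. Where none was called, it took the members of highest mean FPKM. To these it added Mki67, Ccnb1, Ccnd1, Cdkn1a, Alb, Afp, Cyp7a1, Cyp8b1, Saa1, Lcn2, Mt2 and Hamp. Of the genes it took, 1 is not reported here. The members and lists were chosen with earlier results of these data known, and other genes given with values were chosen after those values were seen. Coordinates are from GENCODE M21 on GRCm38 and promoters from RefSeq. Alternatives tried were the pseudocount, the filter, the scaling, the trend, a 2-fold minimum, all 8 libraries and leaving out each library; removing length and GC trends and scaling without mitochondrially encoded genes were added after seeing the data.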

Additional observations from a re-analysis of the deposited data

Results flagged for a closer look

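Among 69 named genes whose 4 day 2 libraries could be compared, 6 had 1 library that stood apart on the log2(FPKM + 1) scale. On that scale its gap to the nearest of the others, as a share of the group's range, was above Dixon's 95% critical value. Chance marks about 1 group in 20. Atf5 was 116 FPKM in day 2 replicate 4, below the other 3 libraries at 149 to 153. Cyp8b1 was 5.04 FPKM in day 2 replicate 2, where the others were at 0.527 to 0.810. Klkb1 was 3.32 FPKM in day 2 replicate 1, against 11.5 to 14.2 in the others. Dbp was 2.25 FPKM in day 2 replicate 1, with the others at 8.40 to 8.80. Lyve1 was 1.76 FPKM in day 2 replicate 3, and the other libraries measured 4.07 to 4.67. Timp1 was 2.18 FPKM in day 2 replicate 3, under the range of 10.9 to 13.8 of the others. All 6 genes were called, and groups overlap in no called gene. The library that stood apart therefore lay on the day 2 side of both day 14 values.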

How the results depend on the processing

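All 996 calls kept their sign in every alternative in which the gene was fitted. Because their groups did not overlap, only the scaling settings and the removal of length and GC trends could have reversed a sign. The number called, in all and then higher and lower, was 541, 397 and 144 with no filter on low values, 1957, 1096 and 861 with all 8 libraries, and 24, 17 and 7 against a 2-fold minimum. Scaling without mitochondrially encoded genes gave 296 higher and 427 lower. Leaving out 1 library gave 1 to 1046 calls, 1 to 600 higher and 0 to 446 lower, with 169 without day 2 replicate 1, 380 without day 2 replicate 4 and 1 and 18 without day 14 replicates 1 and 2, where the lone day 14 library was assumed to vary like the day 2 group. Other settings gave counts within 1.5 times of the reported ones: 798 with a pseudocount of 0.1, 846 with a 5 FPKM filter, 1025 with median-ratio and 1137 with quantile scaling, 1011 without the trend and 1005 with length and GC trends removed. Of the 54 called named genes, 21, 49, 46 and 33 kept their call without day 2 replicates 1, 2, 3 and 4.

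Named genes that changed sign were all uncalled. Without 1 library, Cks2 ran from -0.63 to 0.047 (without day 2 replicate 4), Alb from -0.064 (without day 2 replicate 1) to 0.41, Cela1 from -0.50 to 0.017 (without day 14 replicate 1; 0.0054 without day 2 replicate 2), Mylpf from -0.37 (without day 14 replicate 1) to 1.04 and Hamp from -0.11 (without day 2 replicate 4) to 0.70. With quantile scaling Alb was at -0.59 and Hamp at -0.12. Saa1 was called with quantile scaling (-3.40), with all 8 libraries (-2.98) and without mitochondrially encoded genes (-3.12), and Cidec without day 2 replicate 3 (-5.35). The cause was not tested. Of 408 list medians recomputed, 20 moved by more than the spread between libraries. No paired analysis was possible because the titles of the day 2 and day 14 libraries share fewer than 2 replicate numbers. With no read counts, nothing can be said about which low values depth limits.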

Other observations

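Further called genes lay outside the lists and were chosen after their values were seen. Scnn1a, the alpha subunit of the epithelial sodium channel, was at 0.588, 0.528, 0.802 and 0.973 FPKM at day 2 and 23.2 and 15.3 FPKM at day 14 (3.54, adjusted p = 0.00325), with the controls at 11.5 and 9.97 FPKM. Car1, a carbonic anhydrase best known from red cells, was at 0, 0, 0.368 and 0 FPKM at day 2 and 14.2 and 8.97 FPKM at day 14 (3.51, adjusted p = 0.00499), with the controls at 6.34 and 4.58 FPKM. Nlrp6, an inflammasome sensor best known from gut epithelium, was at 12.9, 7.37, 15.1 and 15.2 FPKM at day 2 and 182 and 107 FPKM at day 14 (3.41, adjusted p = 0.0103). Deptor, an inhibitor of mTOR, was at 3.03, 1.98, 4.05 and 2.88 FPKM at day 2 and 18.5 and 21.5 FPKM at day 14 (2.42, adjusted p = 0.0103). All 4 rose. Tbx3os1, a long noncoding RNA beside Tbx3, also rose, at 0, 0, 1.08 and 0.543 FPKM at day 2 and 33.2 and 14.9 FPKM at day 14 (4.12, adjusted p = 0.0101), as Tbx3 did.

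Among the falls, Tnfrsf12a, the receptor for the injury cytokine TWEAK, was at 359.8, 290.4, 158 and 152 FPKM at day 2 and 11.6 and 14.6 FPKM at day 14 (-4.00, adjusted p = 0.0101), with the controls at 7.73 and 7.92 FPKM. Anxa2, a calcium-dependent membrane-binding protein, was at 106, 65.1, 72 and 145 FPKM at day 2 and 5.07 and 7.3 FPKM at day 14 (-3.72, adjusted p = 0.0101). Nid1, the basement membrane linker that binds collagen IV, was at 31.8, 23.2, 16.4 and 14.2 FPKM at day 2 and 0.526 and 1.26 FPKM at day 14 (-3.52, adjusted p = 0.0101). Btg3, an antiproliferative relative of Btg2, was at 47, 75.2, 25.8 and 42.7 FPKM at day 2 and 2.64 and 3.69 FPKM at day 14 (-3.46, adjusted p = 0.0116). Hmga1, a chromatin protein of proliferating cells, was at 25.9, 21.8, 31.1 and 23 FPKM at day 2 and 4.25 and 5.17 FPKM at day 14 (-2.20, adjusted p = 0.0103). As in every gene called lower, all 4 day 2 libraries were above both day 14 libraries, the 2 with low mitotic genes included.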
